A study of Sus scrofa with 599 samples.

Results

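Fat progenitor marker genes were followed in bulk RNA, chromatin compartment and enhancer data of 4 adipose tissues (ATs) of the pig. The members were 9 genes chosen by symbol: PDGFRA, PDGFRB, DPP4, PI16, F3, ICAM1, THY1, DLK1 and CD34. Of these, 8 had a row among the 21280 protein-coding genes (PCGs) of the expression table, and THY1 had no Ensembl identifier in the name table used here, so no expression value is given for it. PDGFRA is ENSSSCG00000008841, PDGFRB is ENSSSCG00000022741, DPP4 is ENSSSCG00000015894 and PI16 is ENSSSCG00000001570. F3 is ENSSSCG00000022447, ICAM1 is ENSSSCG00000013655, DLK1 is ENSSSCG00000035805 and CD34 is ENSSSCG00000039946.

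The ATs were the greater omentum (GOM), mesenteric fat (MAD) and retroperitoneal fat (RAD), which are visceral, and the upper layer of backfat (ULB), which is subcutaneous. All donors were Bama pigs, a small breed from China, and were adult females 2 years old. The NC diet was normal, the WG diet was high in fat and lasted 22 weeks, and the WL animals were taken from the fattened pigs and then kept for 12 weeks on a ration that held 10% of the NC calories. The RNA libraries were 9 NC, 45 WG and 10 WL in GOM, 12, 36 and 10 in MAD, 12, 39 and 10 in RAD, and 5, 38 and 10 in ULB. The 240 Hi-C libraries were 9, 46 and 10 in GOM, 12, 37 and 10 in MAD, 12, 40 and 10 in RAD, and 5, 39 and 10 in ULB. WL animals differ from WG animals in the weeks elapsed as well as in the diet, and these cannot be told apart.

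White fat holds stem-like stromal cells that can divide and turn into adipocytes. PDGFRA and PDGFRB, receptors for platelet-derived growth factors, mark most of these fibroblast-like cells, and PDGFRB also marks the pericytes around small vessels. In mice, DPP4 and PI16 mark interstitial progenitors in the connective tissue around fat lobules, ICAM1 marks cells committed to become adipocytes, and F3 marks stromal cells that restrain fat formation. DLK1 is the classical preadipocyte factor that is lost during differentiation, THY1 is a surface protein of fibroblasts, and CD34 marks both stromal progenitors and endothelium. None of these genes is exclusive to progenitors: DPP4 is also expressed by epithelia and lymphocytes, F3 (tissue factor) by many cells around vessels, and ICAM1 by endothelium and leukocytes. In whole tissue, fewer cells of a type and less RNA per cell cannot be told apart.

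The libraries held 3337100 to 22939400 estimated counts on PCGs (median 16791700). They fell into sets by the share of TPM (a transcript level per length, scaled to the same total in every library) on the 13 mitochondria-encoded mRNAs: 100 libraries held 9.70 to 37.4% (the high set) and 136 held 0.531 to 7.29% (the low set). All 40 WL libraries were in the low set and all 9 NC GOM libraries in the high set, whereas WG was mixed, with 18, 18, 16 and 18 high libraries in GOM, MAD, RAD and ULB. Of 45 WG replicate numbers found in several ATs, 42 stayed in one set. The set moves with the diet groups. Values within a set, or with a term for it, are given beside many but not all diet results of the members. None were fitted for the lists of other genes. In GOM, NC and WL share no set, so diet and set cannot be told apart between them. Adipocyte markers (ADIPOQ, PLIN1, LEP, CIDEC, LIPE and PNPLA2) summed to medians of 3314 to 8153 TPM in the 12 groups. Of the mesothelial list, 4 of 8 genes had a row, and their sum had medians of 211 to 340 TPM in the GOM groups and 8.29 to 18.02 TPM in the other groups. Library WG GOM 35 stood apart, with the lowest count total and a median r of 0.586 with its group, against 0.883 or more for every other library.

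The expression of genes starts at a promoter, and the bases upstream of the start differed widely in composition among the members. RefSeq gives a window for all 9 genes on Sscrofa11.1, and 3 windows of 250 bases are shown because they hold the extremes that the later results refer back to: ICAM1 was the single member with either motif searched, DLK1 had the most CpG sites and was listed at 0 in most libraries, and PI16 varied most between ATs. The motifs were TATAAA, the core of a TATA box, and GGAAATTCC, a form of the site bound by NF-kappa-B. Each was searched on both strands and is in capitals, and no capital means no match in this window. The ICAM1 window is chr2:69096886-69097135 on the plus strand, the DLK1 window is chr7:121565594-121565843 on the plus strand, and the PI16 window is chr7:32600702-32600951 on the plus strand.
ICAM1: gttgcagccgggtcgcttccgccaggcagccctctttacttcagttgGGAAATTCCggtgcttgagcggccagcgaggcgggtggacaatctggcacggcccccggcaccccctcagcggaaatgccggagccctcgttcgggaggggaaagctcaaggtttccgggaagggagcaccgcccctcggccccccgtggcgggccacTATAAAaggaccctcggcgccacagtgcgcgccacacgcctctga
DLK1: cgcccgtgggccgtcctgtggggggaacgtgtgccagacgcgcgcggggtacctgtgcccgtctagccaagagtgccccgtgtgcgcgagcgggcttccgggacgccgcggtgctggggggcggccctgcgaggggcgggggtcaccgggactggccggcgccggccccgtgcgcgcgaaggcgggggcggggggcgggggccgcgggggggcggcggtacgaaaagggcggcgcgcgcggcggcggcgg
PI16: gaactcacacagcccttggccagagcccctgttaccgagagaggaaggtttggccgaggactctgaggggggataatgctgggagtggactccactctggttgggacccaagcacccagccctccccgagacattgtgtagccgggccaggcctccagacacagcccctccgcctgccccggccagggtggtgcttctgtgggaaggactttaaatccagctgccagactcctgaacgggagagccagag
TATAAA was found in 9.77% and GGAAATTCC in 0.368% of the windows of 19569 protein-coding genes. The DLK1 window had a GC content of 82.4% and 44 CpG sites, above those of 98.2% of windows by CpG number, against a median of 57.6% and 12 CpG over all windows. The PI16 window had a GC content of 62.8% and 7 CpG sites, and the ICAM1 window 67.6% and 23.

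PI16, a peptidase inhibitor made by interstitial progenitors and fibroblasts, had the widest range of all members. Its group medians ran from 13.6 TPM in WL ULB to 391 TPM in WG MAD, a ratio of 28.8. In GOM the lowest, median and highest libraries were at 32.996, 43.8 and 73.1 TPM in NC, 40.05, 128 and 235 in WG, and 22.5, 69.4 and 94.9 in WL. In MAD they were at 34.8, 173 and 341 TPM in NC, 133, 391 and 852 in WG, and 88.3, 205 and 356 in WL. MAD was thus the highest AT under each diet, with its WG libraries reaching above those of every other group. In RAD they were at 33.02, 85.3 and 164 TPM in NC, 26.4, 75.6 and 256 in WG, and 49.7, 90.6 and 135 in WL. The 5 NC ULB libraries were at 21.4, 24.4, 29.1, 34.2 and 39.8 TPM, and the lowest, median and highest were 9.37, 28.8 and 59.1 in WG ULB and 7.45, 13.6 and 37.9 in WL ULB. Backfat libraries overlapped with no MAD library in WG and WL.

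The other levels spanned smaller ranges. F3 had the highest median of the members over all libraries, though PI16 was higher in NC, WG and WL MAD and PDGFRA in WL GOM. Its group medians were 103 TPM in WL GOM to 255 TPM in WL RAD, and the median over all libraries was above those of 97.2% of PCGs. PDGFRA medians ran from 53.0 TPM in NC RAD to 176 TPM in WL GOM, and PDGFRB medians from 25.7 TPM in NC GOM to 79.7 TPM in WG ULB. CD34 ran from 31.1 TPM in NC RAD to 67.0 TPM in NC ULB and ICAM1 from 19.8 TPM in NC MAD to 38.9 TPM in WG RAD. DPP4 was the lowest of the 7 members that were tested, from 3.09 TPM in WG ULB to 8.37 TPM in WL GOM. TPM is a share of the library, so a large mitochondrial share lowers every other gene: with TPM rescaled over PCGs other than the mitochondria-encoded ones, 4 of these 7 genes kept both their lowest and their highest group (PDGFRA, PDGFRB, PI16 and CD34). Neighbours in these orders mostly differed by less than the spread of their libraries, as in CD34, whose medians of 65.0, 65.4 and 67.0 TPM in WL, WG and NC ULB lay inside ranges of 43.01 to 93.7, 14.7 to 131 and 52.8 to 91.7 TPM.

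**Figure D1:**
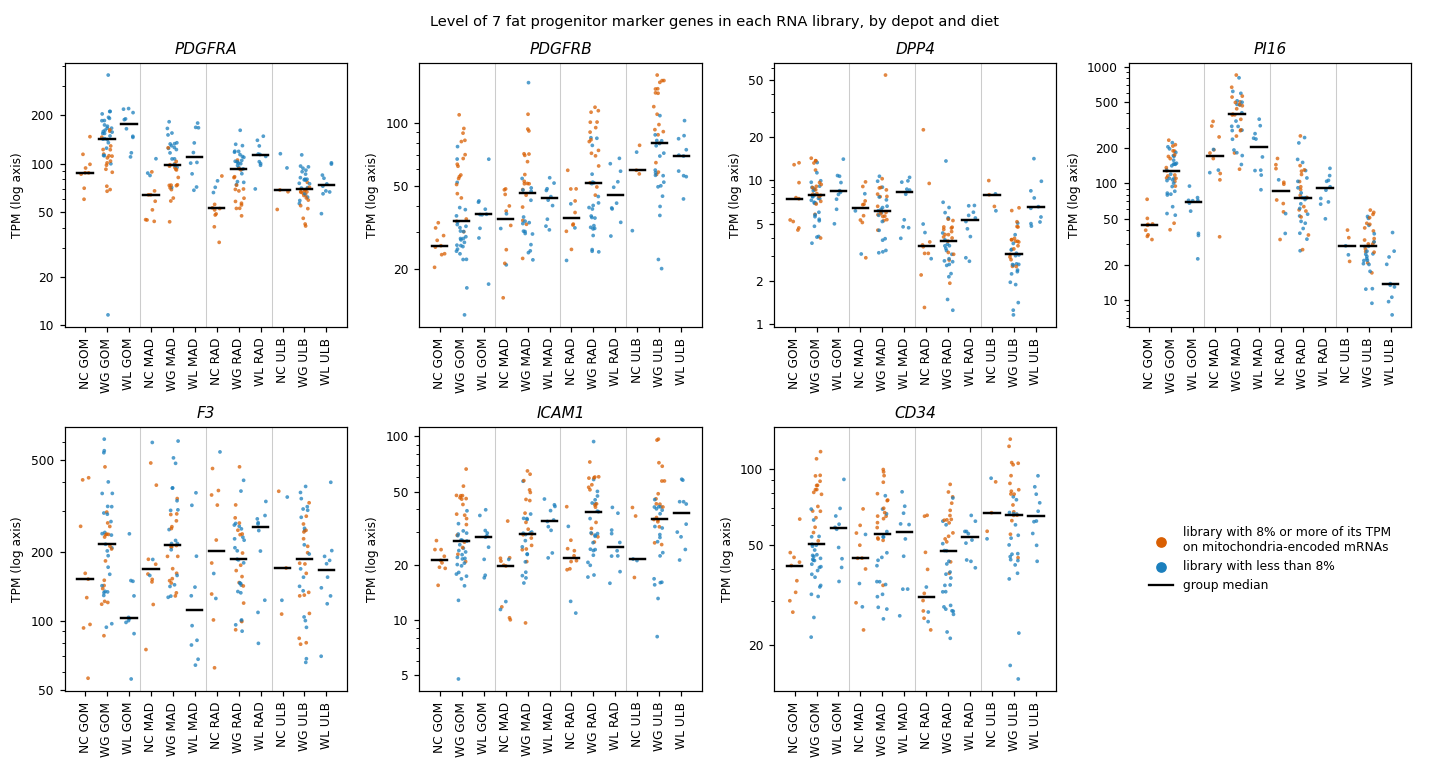
Level of each of 7 members in TPM (log axis) in each RNA library, in 12 groups of AT and diet, with the library coloured by its mitochondrial set and a bar at the group median. PI16 steps down from MAD (median 391 TPM in WG) to ULB (28.8 TPM in WG), and the high set (orange) lies above the low set in PDGFRB and CD34 of the WG groups.

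DLK1 was listed at 0 in 197 of the RNA libraries. It was above 0.5 TPM in 2 libraries, WG GOM 31 at 9.63 TPM and WG ULB 8 at 8.57 TPM, whose groups had no other library above 0.171 and 0.264 TPM. The gene passed the filter on low values (over 0.5 TPM in 80% or more of the libraries of a group) in no comparison, so 7 of the 9 members were tested. Without the filter its interaction of AT and diet between WG and WL was called (edgeR adjusted p = 0.0050), and both high libraries lie in WG groups.

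The comparison between ATs asks whether subcutaneous and visceral fat, and the visceral ATs among themselves, differ in these genes under a given diet. Each pair of groups was tested with edgeR over all PCGs that passed the filter (13346 to 14316), and a gene was called at an adjusted p below 0.05 (Benjamini-Hochberg over all genes tested) and a fold change above 1.5. Across the 18 comparisons of ATs, 37 of 126 tests of members were called (29.4%). PI16 was called in 16 of the 18, PDGFRA and PDGFRB in 6 each, DPP4 in 5, CD34 in 3, F3 in 1 and ICAM1 in 0. Log2 fold changes are given with their standard errors, as the first named group over the second. Of the 37 calls, 25 were made under all alternatives run for them.

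In NC, MAD had 1 member called over GOM, PI16, where 17.7% of all PCGs tested were called. RAD had 2 of 7 called against GOM (19.5% of PCGs), PI16 higher and PDGFRA lower, and 0 of 7 against MAD (2.41% of PCGs). In that last comparison 2 of the 7 had an unadjusted p below 0.05 in edgeR, and DESeq2 called 1, PI16, lower in RAD (edgeR -0.95 ± 0.28, adjusted p = 0.065). ULB had 3 of 7 called against GOM (25.4% of PCGs), 3 against MAD (7.73%) and 2 against RAD (4.32%). In WG, 1 member was called between MAD and GOM (6.27% of PCGs), 1 between RAD and GOM (11.2%), 4 between ULB and GOM (17.9%), 2 between RAD and MAD (5.4%), 3 for ULB with MAD (14.4%) and 1 between ULB and RAD (9.27%). In WL, 1 was called between MAD and GOM (5.97%), 4 between RAD and GOM (12.2%), 3 between ULB and GOM (16%), 1 between RAD and MAD (7.31%), 3 for ULB with MAD (14.4%) and 2 between ULB and RAD (4.34%). With 7 members, 1 called gene is a share of 14.3%, close to the background of several of these comparisons.

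**Figure D2:**
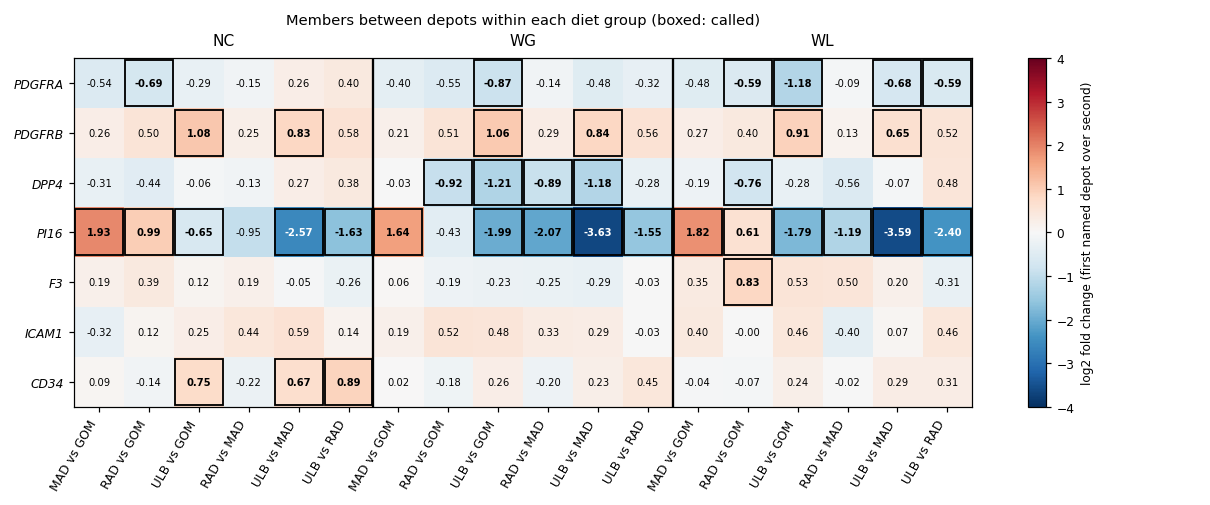
Log2 fold change of 7 members (rows) in the 18 comparisons of ATs (columns, 6 in each diet group), first named AT over the second, with called genes boxed. PI16 has boxes in 16 of 18 columns, PDGFRB is higher in ULB than in GOM and MAD under each diet, and ICAM1 has no box.

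PI16 was lower in backfat than in each visceral AT under each diet. In WG the log2 fold change was -3.63 ± 0.15 against MAD (edgeR adjusted p = 1.6e-34), -1.99 ± 0.13 against GOM (1.7e-24) and -1.55 ± 0.17 against RAD (2.1e-12). In WL it was -3.59 ± 0.31, -1.79 ± 0.27 and -2.40 ± 0.25, and in NC -2.57 ± 0.39, -0.65 ± 0.23 and -1.63 ± 0.33, in the same order. The NC difference from GOM was the weakest: its adjusted p was 0.045, and 0.18 with the replicate number as a block (-0.57, from the 4 numbers found in both groups), where the numbers paired the samples. It was also not called without NC ULB replicate 2 (-0.63), 5 (-0.53), 7 (-0.55) or 12 (-0.63), or without NC GOM replicate 10 and WG GOM replicate 7 together (-0.66, adjusted p = 0.053), which resembled each other across diets. MAD was above GOM by 1.93 ± 0.28 in NC, 1.64 ± 0.13 in WG and 1.82 ± 0.26 in WL. RAD was lower than MAD in WG (-2.07 ± 0.17) and WL (-1.19 ± 0.22). Against GOM it was higher in NC (0.99 ± 0.24) and WL (0.61 ± 0.20), and in WG its -0.43 ± 0.15 did not reach the fold change asked for. RAD thus lay above GOM in NC and WL and slightly below it in WG. Within the low mitochondrial set, WG ULB against MAD gave -3.73 ± 0.21, and within the high set -3.50 ± 0.18.

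PDGFRB ran the other way, higher in backfat. The 5 NC ULB libraries were at 30.4, 56.9, 59.2, 72.3 and 78.0 TPM, and the 9 NC GOM libraries at 20.3 to 33.2 TPM with a median of 25.7. Of the backfat libraries, 1 lay inside the omental range. The log2 fold change of ULB over GOM was 1.08 ± 0.18 in NC (edgeR adjusted p = 0.00031), 1.06 ± 0.14 in WG and 0.91 ± 0.16 in WL. In NC the paired fit with the replicate block gave 0.97 with an adjusted p of 0.055. Over MAD it was 0.83 ± 0.22, 0.84 ± 0.14 and 0.65 ± 0.14 in NC, WG and WL, and the NC value was not called without NC ULB replicate 7, 9 or 12 (0.78 each, adjusted p of 0.075, 0.058 and 0.064). Over RAD it was 0.58 ± 0.19, 0.56 ± 0.14 and 0.52 ± 0.16, all below the fold asked for or the p. Mural markers (RGS5, NOTCH3, CSPG4, MCAM, ACTA2 and MYH11), genes of pericytes and smooth muscle that also carry PDGFRB, summed to medians of 295, 312 and 267 TPM in GOM (NC, WG and WL), 654, 538 and 500 in MAD, 257, 382 and 324 in RAD and 339, 427 and 400 in ULB. They were thus higher in ULB than in GOM and lower in ULB than in MAD under each diet, reached 5852 TPM in 1 NC MAD library, and their part in the result was not tested.

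PDGFRA was lower in backfat than in the omentum in WG and WL. Its WG GOM libraries ran from 11.6 TPM in the library that stood apart to 353 TPM with a median of 142, and WG ULB from 41.1 to 113 TPM with a median of 69.6. The ranges overlapped. The log2 fold change was -0.87 ± 0.11 in WG (edgeR adjusted p = 5.9e-11) and -1.18 ± 0.14 in WL, and -0.29 ± 0.20 in NC, where it was not called. The interaction of AT and diet reported further on was not called for PDGFRA between NC and WG over all libraries (edgeR adjusted p = 0.087). In WL, ULB was also lower than MAD (-0.68 ± 0.15) and RAD (-0.59 ± 0.10), and RAD was lower than GOM (-0.59 ± 0.13), as in NC (-0.69 ± 0.14). The 2 receptors of this family therefore differed in opposite directions between backfat and omentum, in WG and in WL. Mesothelial markers, which were high in every GOM group, move with each of these comparisons with GOM, and their part was not tested.

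DPP4, a peptidase of the cell surface, was called between ATs 4 times in WG, once in WL and in no NC comparison by edgeR over all libraries. In WG it was lower in RAD than in GOM (-0.92 ± 0.12) and MAD (-0.89 ± 0.17), and lower in ULB than in GOM (-1.21 ± 0.10, edgeR adjusted p = 9.3e-18) and MAD (-1.18 ± 0.16). The MAD libraries included WG MAD 39, at 53.9 TPM. Without that library the WG MAD mean fell from 7.76 to 6.44 TPM, and the calls against MAD were kept. Within the low mitochondrial set the difference of RAD from MAD was -0.54 with an adjusted p of 0.084. WG libraries had medians of 7.87 TPM (3.66 to 14.3) in GOM, 6.11 (3.14 to 53.9) in MAD, 3.78 (1.25 to 13.6) in RAD and 3.09 (1.16 to 6.45) in ULB. RAD and ULB thus lay together and below GOM and MAD, with overlapping ranges, and ULB against RAD (-0.28 ± 0.13) was not called. In WL, RAD against GOM was the single call (-0.76 ± 0.21). In NC the differences were between -0.44 and 0.38, and the values of RAD turned on 1 library, replicate 7, at 22.5 TPM. Without it RAD was lower than GOM by -1.02 ± 0.26 and called (edgeR adjusted p = 0.0060), and it differed from MAD by -0.71 (0.19) and ULB differed from it by 0.98 (0.061). With it, DESeq2 called ULB over RAD (0.93, adjusted p = 0.028).

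CD34, a sialomucin of progenitors and endothelium, was higher in backfat in NC: by 0.75 ± 0.18 over GOM, 0.67 ± 0.20 over MAD and 0.89 ± 0.19 over RAD (edgeR adjusted p = 0.0052, 0.042 and 0.01). Its 5 NC ULB libraries were at 52.8, 56.5, 67.0, 88.7 and 91.7 TPM, and the 9 NC GOM libraries at 27.1 to 63.2 TPM. The difference from MAD was not called without NC ULB replicate 7 (0.59), 9 (0.64) or 12 (0.65). In WG and WL the differences of ULB were 0.23 to 0.45, under the fold asked for. Whether the AT difference itself changed with diet was tested with the interaction reported further on, where CD34 had an adjusted p of 0.45 between NC and WG (0.038, and called, with a term for the mitochondrial set). F3, the cell-surface starter of coagulation, was higher in WL RAD than in WL GOM (0.83 ± 0.23), and ICAM1, the ligand of leukocyte integrins, reached differences of 0.52 ± 0.11 for WG RAD and 0.48 ± 0.13 for WG ULB against GOM, both with an adjusted p below 0.05 and a fold under 1.5.

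The comparison between diets within an AT asks what weight gain and the restriction after it did to the same genes. Of 84 tests, 18 were called (21.4%): PI16 in 6 of 12, F3 in 4, DPP4 and ICAM1 in 3 each, PDGFRA in 2, and PDGFRB and CD34 in 0. For WG against NC, GOM had 1 call in 7 members (26.7% of PCGs tested), MAD 2 (10.7%), RAD 1 (16.7%) and ULB 1 (2.38%). For WL against WG, GOM had 2 calls (5.26%), MAD 2 (17.4%), RAD 1 (6.37%) and ULB 2 (8.12%). For WL against NC, GOM had 1 call (36.1%), MAD 3 (33.1%), RAD 1 (26.7%) and ULB 1 (14.8%). These contrasts share groups, so a member high in WG alone appears in both contrasts that hold WG. Of the 18 calls, 2 were made under all alternatives run for them: PI16 higher in WG GOM than in NC GOM, and PI16 lower in WL ULB than in WG ULB. For the former, 2 alternatives could not be run: libraries with 88% or more of TPM on PCGs alone, and the low set alone. In GOM, 7 of 9 NC, 3 of 45 WG and 6 of 10 WL libraries were under 88%, and 0 NC libraries were in the low set.

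PI16 rose with weight gain in the omentum and the mesentery and fell after restriction. In GOM the WG libraries exceeded NC by 1.26 ± 0.21 (edgeR adjusted p = 5.8e-06), and by 1.25 ± 0.23 within the high mitochondrial set, where 18 WG libraries had a median of 133 TPM and 9 NC libraries one of 43.8. In MAD the rise was 0.95 ± 0.22 (adjusted p = 0.0023), 0.90 ± 0.27 within the high set, and 1.27 ± 0.41 with an adjusted p of 0.20 within the low set, which held 3 NC libraries. From WG to WL it fell by 1.18 in GOM, 1.00 in MAD and 0.94 in ULB on the log2 scale (log2 fold changes -1.18 ± 0.21, -1.0 ± 0.23 and -0.94 ± 0.22). Within the low set, which holds all WL libraries, these were -1.17 ± 0.20, -0.93 ± 0.25 and -0.79 ± 0.24, and all 3 were called. RAD gave -0.17 ± 0.26 for WG against NC and -0.10 ± 0.27 for WL against WG, with neither called. WL did not differ detectably from NC in GOM (0.10 ± 0.21), MAD (-0.03 ± 0.28) and RAD (-0.27 ± 0.22), whereas in ULB it was lower by -1.05 ± 0.30, a value that lost its call without NC ULB replicate 9 (-0.85, adjusted p = 0.086) and with a term for the mitochondrial set (-0.89, 0.18).

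Some WL MAD libraries carried signs of lymphoid tissue beside these falls. All 5 T cell and 3 B cell markers were higher in WL MAD than in WG MAD, where 8.26% of PCGs were higher. The T cell markers (CD3E, CD3D, CD2, CD8A and LCK) summed to 35.7 to 703 TPM there and the B cell markers (CD79A, CD79B and MS4A1) to 12.9 to 509 TPM, against 10.2 to 38.5 and 10.4 to 26.7 TPM in NC MAD. In WG MAD the sums reached 265 and 281 TPM. The T cell sum had medians of 18.7, 32.5 and 54.4 TPM in NC, WG and WL MAD. The medians of the B cell sum lay close together, at 18.7, 16.9 and 19.6 TPM. Their part in the MAD results was not tested. In GOM the T cell sum was 25.6 to 95.2 TPM in WL and 12.7 to 106 in WG. Endothelial markers (6 of 7 with a row) had group medians of 528 to 945 TPM, and macrophage markers (CD68, CD163, CSF1R, MRC1, C1QA and AIF1) had medians of 263 in NC MAD to 763 TPM in WG GOM. Skeletal muscle markers (3 of 5 with a row) had medians of 0.940 to 4.33 TPM with single libraries up to 118 TPM.

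DPP4 fell in backfat with weight gain and rose there after restriction. The 5 NC ULB libraries were at 6.15, 6.59, 7.95, 8.06 and 9.97 TPM, the WG ULB libraries at 1.16 to 6.45 with a median of 3.09, and the WL ULB libraries at 4.81 to 14.2 with a median of 6.48. Of the NC libraries, 1 lay inside the WG range. The log2 fold change was -1.38 ± 0.21 for WG against NC (edgeR adjusted p = 2.9e-05) and 1.06 ± 0.17 for WL against WG (8.1e-06). Within the low mitochondrial set the latter was 1.25 ± 0.19, and within the high set, which held 3 NC ULB libraries, the former was -1.27 ± 0.21. In GOM and MAD no diet comparison was called, with differences of -0.22 to 0.10. In RAD, WG was lower than NC by -0.72 ± 0.25 (adjusted p = 0.02), but this rested on NC RAD replicate 7, at 22.5 TPM against 9.52 TPM or less in the other 11, and without it the difference was -0.13 (adjusted p = 0.66).

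F3 fell after restriction in the omentum and the mesentery. In GOM its libraries ran from 86.2 to 616 TPM with a median of 215 in WG, and from 55.9 to 239 with a median of 103 in WL. The WL against WG difference was -1.05 ± 0.27 in GOM (edgeR adjusted p = 0.0086) and -0.77 ± 0.25 in MAD (0.019), and -1.22 ± 0.28 and -0.97 ± 0.30 within the low mitochondrial set. Against NC it was -1.01 ± 0.33 in GOM and -0.86 ± 0.34 in MAD, the latter with an adjusted p of 0.043 that rose to 0.13 within the low set. In GOM no set holds both NC and WL libraries, so diet and set cannot be told apart there. In RAD and ULB the WL against WG differences of -0.00 ± 0.21 and -0.27 ± 0.24 were not called. The spread of F3 was wide in every group, with the SD at 0.394 to 0.695 of the mean.

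ICAM1 rose with weight gain in MAD, from NC libraries of 10.0 to 34.6 TPM with a median of 19.8 to WG libraries of 9.64 to 64.9 with a median of 29.5. The difference was 0.63 ± 0.17 (edgeR adjusted p = 0.0075), and WL MAD stayed above NC by 0.76 ± 0.20. The summed macrophage markers moved with it, from a median of 263 TPM in NC MAD to 577 in WG MAD and 552 in WL MAD, and from 325 in NC RAD to 539 in WG RAD, and their part was not tested. In RAD the rise of 0.52 ± 0.18 fell short of the fold asked for, and was 0.65 ± 0.17 and called with a term for the mitochondrial set. The fall from WG to WL in RAD was -0.60 ± 0.18, and -0.46 ± 0.19 with an adjusted p of 0.11 within the low set. PDGFRA was higher in WL than in NC in MAD (0.61 ± 0.15) and RAD (0.67 ± 0.12), and within the low set these were 0.22 and 0.38 with adjusted p of 0.59 and 0.12.

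PDGFRB and CD34 were called in no diet comparison over all libraries, but their values moved with the mitochondrial set. Set differences were also present in ICAM1 and, in the opposite direction, PDGFRA. In the high and low WG GOM libraries the medians were 40.2 and 22.7 TPM for ICAM1 and 110 and 158 TPM for PDGFRA. Over all libraries, WG GOM differed from NC GOM by 0.40 ± 0.22 in PDGFRB and 0.21 ± 0.17 in CD34, with neither called. Within the high set, where all NC GOM libraries lie, the differences were 0.81 ± 0.16 and 0.59 ± 0.12, both called (edgeR adjusted p = 0.0003 and 0.00042). PDGFRB had medians of 59.1 TPM in the 18 high and 27.9 TPM in the 27 low WG GOM libraries, and NC GOM one of 25.7. In RAD the same held for PDGFRB, with 0.40 ± 0.18 over all libraries and 0.72 ± 0.14 within the high set. From WG to WL, where the low set alone is shared, PDGFRB changed by 0.13, 0.06, 0.06 and 0.05 in GOM, MAD, RAD and ULB, against -0.26, -0.21, -0.35 and -0.38 over all libraries, and none was called.

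**Figure D3:**
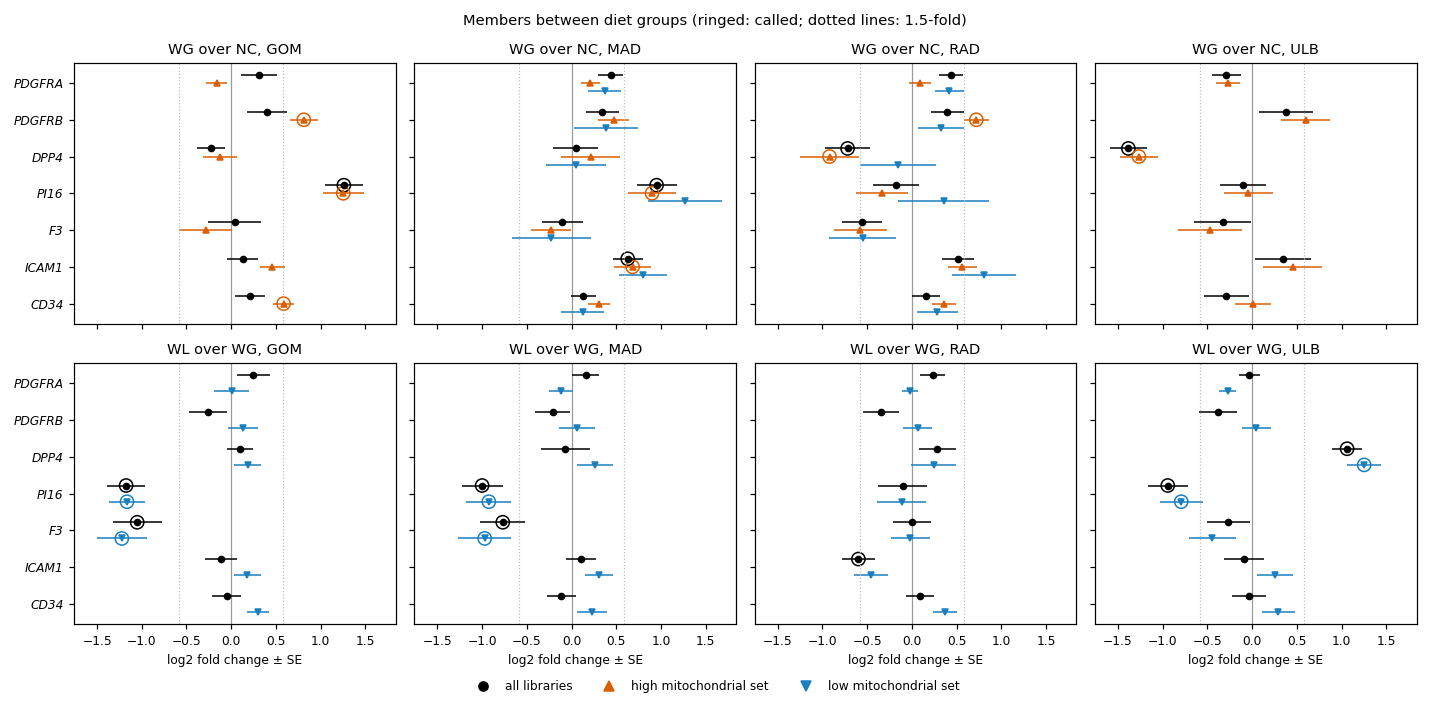
Log2 fold change ± SE of 7 members for WG over NC (top) and WL over WG (bottom) in each AT, for all libraries, the high mitochondrial set and the low mitochondrial set where at least 3 libraries of each group were in it. For WG over NC, PI16 (1.26 in GOM) and DPP4 (-1.38 in ULB, 3 NC libraries in the set) hold their place within the high set, the only set fitted for them. PDGFRB in GOM moves from 0.40 to 0.81 within the high set.

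Whether the response to diet differed between ATs was tested in 1 fit of all RNA libraries. Between NC and WG, 2 of 7 members had an interaction of AT and diet (8.8% of PCGs): DPP4 (edgeR adjusted p = 0.0090) and PI16 (0.00054). Between WG and WL, 1 did (6.41% of PCGs): DPP4 (0.032), and PI16 had an adjusted p of 0.055. The test covers all ATs at once and names no pair of them. For PI16, WG against NC gave 1.26 in GOM and -0.10 ± 0.26 in ULB, with RAD, given above, also not called. For DPP4 it gave -1.38 in ULB and 0.05 ± 0.25 in MAD. Without WG GOM replicate 35, 5 interactions were called in place of 3, the others being PDGFRA between NC and WG (0.048) and PI16 between WG and WL (0.0496). With a term for the mitochondrial set 6 were called, the others being PDGFRA (0.048) and CD34 (0.038) between NC and WG and PI16 between WG and WL (0.042). In the high set alone, DPP4 between NC and WG was not called (0.073) and PI16 was (0.0088).

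Lists of other genes of the progenitor niche were followed in the same fits over all libraries. A list is described by its counts or by its called genes, beside the shares of all PCGs. At most the 4 widest calls of a list are named in a comparison. Of all PCGs tested in ULB against GOM, 13.3% were higher and 12.1% lower in NC, 7.59 and 10.3% in WG, and 6.16 and 9.81% in WL. For WG against NC these shares were 12.2 and 14.5% for GOM, 5.38 and 5.29% for MAD, 7.1 and 9.6% for RAD, and 0.507 and 1.87% for ULB. For WL against WG they were 2.55 and 2.71% for GOM, 8.26 and 9.17% for MAD, 2.24 and 4.13% for RAD, and 3.22 and 4.9% for ULB. The interstitial progenitor list had 6 of 8 genes with a row, and CD55 and ANXA3 had none. In WG ULB against GOM, 2 of its 5 tested genes were higher and 1 lower (7.59% and 10.3% of PCGs), with a median log2 fold change of 0.07 against -0.00 over all genes. BMP7, a growth factor, was lower by -5.38 ± 0.29, at a median of 6.34 TPM in GOM and 0.115 TPM in ULB, WNT2 was higher by 1.77 ± 0.21 and LIMCH1 by 0.78 ± 0.10. In NC the same contrast gave BMP7 at -3.81, WNT2 at 2.91 and CREB5 at -1.42, and in WL BMP7 at -5.99, WNT2 at 1.78 and LIMCH1 at 0.90. From WG to WL, 4 of 6 were lower in MAD (median -0.90), CREB5 by -1.36, LIMCH1 by -1.14, and BMP7 and SEMA3C by -0.90 each. LIMCH1 was also lower in GOM (-0.92) and ULB (-0.75), while BMP7 was higher in GOM (1.19) and RAD (0.98). With weight gain, WNT2 was higher in MAD (0.98) and DACT2 lower in RAD (-0.61), and 0 of 4 and 0 of 5 were called in GOM and ULB.

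Stromal matrix genes, the fibrillar collagens and their partners made by fibroblasts, were the list with the most calls. All 8 were tested. In ULB against GOM, 5 of 8 were higher and 0 lower in NC (13.3 and 12.1% of PCGs), and 4 higher and 1 lower in WG (7.59 and 10.3%) and in WL (6.16 and 9.81%). COL1A1 was higher by 2.95 in NC, 2.73 in WG and 2.28 in WL, COL3A1 by 3.09, 2.33 and 1.37 and COL1A2 by 3.07, 2.18 and 1.91, and CD248 was among the widest in NC (1.28) and WL (1.74). MFAP5, of the microfibrils, was lower in WG (-1.48). From WG to WL, GOM had 3 of 8 lower, MAD 7, RAD 3 and ULB 3, and 0 were higher in each, against 2.71, 9.17, 4.13 and 4.9% of PCGs lower. COL1A1 gave -1.98, -2.42, -2.68 and -2.39 in the 4 ATs. CD248 was lower in GOM (-1.54) and MAD (-1.503), LUM in GOM (-0.76) and MAD (-0.96), FBN1 in MAD (-1.02), COL3A1 in RAD (-0.90) and ULB (-1.12), and COL1A2 in RAD (-0.80) and ULB (-0.75). With weight gain, where 12.2, 5.38 and 7.1% of PCGs were higher in GOM, MAD and RAD, 4 of the 8 were higher in GOM (COL3A1 at 0.97, FBN1 at 0.89, MFAP5 at 0.63 and COL1A2 at 0.61), 3 in MAD (FBN1 at 0.99, COL3A1 at 0.96 and COL1A2 at 0.84) and 2 in RAD (COL1A2 at 1.15 and COL3A1 at 1.02), and in ULB MFAP5 (-1.17) and DCN (-0.64) were lower (1.87% of PCGs).

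Of the ligands of the PDGF receptors, all 4 were tested. PDGFD, a ligand of PDGFRB, was higher in WG than in NC in GOM (1.27 ± 0.20), MAD (0.71 ± 0.17) and RAD (0.59 ± 0.13), and higher in WL than in WG in MAD (0.59), RAD (0.63) and ULB (0.85). It was the 1 ligand of 4 called in each of these comparisons, where 26.7, 10.7 and 16.7% of PCGs were called for weight gain and 17.4, 6.37 and 8.12% for restriction, so that the share in GOM is that of the background, and 0 of 4 were called in WG against NC in ULB or WL against WG in GOM. Its median was 15.5 TPM in NC GOM and 124 TPM in WL RAD. ULB was above GOM in PDGFD in NC (1.39) and WL (0.90), and in PDGFA, a ligand of PDGFRA, in WG (1.04).

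Committed preadipocyte genes had 5 of 6 with a row. For this list and the next, mostly the called genes alone are named, and no excess over the shares of all PCGs given above is read from them. FABP4, a fatty acid carrier, was higher in WG than in NC in GOM (1.05), and 0 of 5 were called in the other 3 ATs. From WG to WL, PPARG, the master regulator of adipocyte formation, was lower in GOM (-0.65), MAD (-0.77) and RAD (-0.60). COL4A1 was lower in GOM (-0.66) and MAD (-0.78), and GGT5 was higher in MAD (0.62). Of all PCGs, 2.71, 9.17 and 4.13% were lower in GOM, MAD and RAD, and 8.26% were higher in MAD. ULB was above GOM in FABP4 (1.01) and COL4A1 (0.86) in NC, in COL4A1 (0.63) in WG, and in FABP4 (0.95), COL4A1 (0.95), COL15A1 (0.74) and PPARG (0.71) in WL. Of the list of genes of F3-positive stroma, 4 of 5 had a row. FMO2 was higher in ULB than in GOM (2.29 in NC, 2.18 in WG and 2.43 in WL), MGP was lower (-1.83, -1.73 and -1.78), and ABCG1 (-1.15) and CLEC11A (-0.79) were lower in WL. CLEC11A was higher in WG than NC in GOM (0.98), MAD (0.68) and RAD (0.95), as was ABCG1 in GOM (0.70) and RAD (0.83), and MGP was lower in WL than WG in the 4 ATs (-0.65, -0.68, -0.73 and -0.67), while ABCG1 was higher in MAD (0.88) and lower in ULB (-1.26).

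Partners and relatives of the members had 12 of 13 with a row. In ULB against GOM, 1 was higher and 4 lower of 10 tested in NC (13.3 and 12.1% of PCGs), 1 and 3 of 9 in WG (7.59 and 10.3%) and 1 and 3 of 11 in WL (6.16 and 9.81%). In WG against NC, GOM had 1 higher and 1 lower of 9 (26.7% of PCGs called), MAD 3 and 1 of 11 (10.7%), RAD 3 and 2 of 10 (16.7%), and ULB 0 and 1 of 10 (2.38%). In WL against WG, GOM had 2 of 11 higher (2.55% of PCGs), MAD 1 of 10 (8.26%), RAD 1 of 10 (2.24%) and ULB 0 of 10 (3.22%), with 0 lower in each. FAP, the closest relative of DPP4 and a protease of activated fibroblasts, was higher in ULB than in GOM by 2.59 ± 0.21 in NC, 1.70 ± 0.09 in WG and 1.84 ± 0.20 in WL, the direction opposite to that of DPP4 in WG. TFPI, the inhibitor of the tissue factor pathway that F3 starts, was lower in WG than in NC in the 4 ATs (-0.93, -0.81, -1.70 and -1.80 in GOM, MAD, RAD and ULB), and FAP was higher in WG than in NC in GOM (0.69). TFPI2, its relative, was lower in ULB than in GOM (-1.33, -1.38 and -2.36 in NC, WG and WL) and higher in WL than WG in GOM (0.69). F10, the coagulation factor that F3 and F7 activate, was higher in WL than in WG in GOM (2.32), MAD (1.83) and RAD (1.74) and lower in WG than NC in RAD (-2.20), though at low levels, with a median of 0.862 and a highest library of 36.03 TPM in WL GOM. Integrin chains that bind ICAM1 were higher in WG than NC: ITGB2 in MAD (1.16) and RAD (1.15) and ITGAM in MAD (0.95), and ITGAM was lower in ULB than GOM in NC (-1.62) and WG (-0.86). DLK2 was lower in WL ULB than WL GOM (-1.38).

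Variation among WG animals was described within each AT and mitochondrial set (16 to 27 libraries), since the sets form separate clusters. Over 8 genes and 4 ATs this gave 112 pairs in each set, and Pearson's r of log2(TPM + 1) passed an adjusted p of 0.05 (permutation test, 2-sided, 100000 permutations, Benjamini-Hochberg over the 112 pairs) in 15 pairs of the high set, 13 positive and 2 negative, and 10 of the low set, all positive. PDGFRB and CD34 were positively related in all 8 combinations of AT and set, with r of 0.503 to 0.861, and 6 passed. In the high set of GOM, r was 0.846 (Spearman's rho 0.789, adjusted permutation p = 0.00075 and 0.0045, n = 18), and 0.783 without the 2 libraries farthest from the median of PDGFRB. PDGFRB and ICAM1 had r of -0.0157 to 0.923 and 5 passed, the strongest in the high set of GOM (r = 0.923, rho = 0.905, adjusted permutation p = 0.00056 and 0.0011, and 0.905 without the 2 farthest). PDGFRA and ICAM1 were positive in all 8, with r of 0.154 to 0.817, and 3 passed. In the low set of GOM the value of 0.8002 fell to 0.426 without the 2 farthest libraries (rho 0.513, adjusted permutation p = 0.12), so it rested on them. Whether a replicate number marks 1 pig is not given in the sources used here, and composition and depth are common to both genes of a pair.

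The genes whose pattern was most like each member were taken by r of log2(TPM + 1) over all RNA libraries, after the mean of each of the 12 groups was removed, among 13151 PCGs over 0.5 TPM in 80% or more of the libraries. They are a description, with no test, and the libraries share the mitochondrial set. For PDGFRB they were PLXND1 (r = 0.906), ARAP3 (0.905) and ARAP1 (0.902), and for CD34 PLXND1 (0.851), NEURL1B (0.836) and HDAC7 (0.835). For PI16 they were FSTL1 (0.664), FBN1 (0.595) and SFRP4 (0.578), secreted or matrix proteins, and for ICAM1 IL4R (0.842), ZDHHC5 (0.813) and SBNO2 (0.813). PDGFRA was nearest to SF3B3 (0.821), DDX24 (0.806) and PRMT5 (0.7997), and F3 to ACER2 (0.759), ENSSSCG00000015545 (0.722) and ZFAND5 (0.635). With the means of the mitochondrial sets removed as well, FSTL1 and FBN1 stayed the nearest to PI16 (0.678 and 0.663), and the 3 nearest to PDGFRA became PPFIBP1 (0.780), IQGAP1 (0.773) and ENSSSCG00000038506 (0.764).

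For DPP4 they were HAO1 (0.590), UPB1 (0.587) and HPN (0.569), enzymes best known from the liver and, for UPB1 and HPN, the kidney. These values were raised by 2 libraries. WG MAD 39 had 53.9 TPM of DPP4 and 17.6, 64.5 and 27.2 TPM of HAO1, UPB1 and HPN, where the other 35 WG MAD libraries had at most 10.7, 2.16, 2.66 and 3.09 TPM. NC RAD 7 had 22.5, 7.60, 16.9 and 14.2 TPM, where the other 11 NC RAD libraries had at most 9.52, 2.505, 4.21 and 3.45 TPM. Without both, r with DPP4 was 0.437, 0.446 and 0.406. The source of the 4 transcripts in these libraries was not tested.

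The A-B index places each bin of 20 kb in the active compartment A (positive) or the inactive compartment B (negative). Each member took the value of the bin with its RefSeq start, and the last bin of all 18 autosomes ended within 1 bin of the length in Sscrofa11.1. PDGFRB had the highest index of the members, with group medians of 6.06 in NC GOM to 8.08 in NC ULB. ICAM1 followed with 4.82 in NC RAD to 6.37 in WL RAD, and THY1, for which no expression value is given, had medians of 4.02 to 4.58. The lowest belonged to DPP4, from -0.0986 in NC GOM to 0.686 in WL MAD, with the index above 0 in 3 of 9 NC GOM libraries and in 10 of 10 libraries of WL MAD and of WL RAD. DLK1 was on the positive side although its RNA was mostly listed at 0, with medians of 0.618 in WG GOM to 2.41 in WL ULB and an index above 0 in 43 of 46 WG GOM libraries.

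PI16, with its wide range of expression, had index medians of 3.27 in NC GOM to 4.78 in WL RAD, and in ULB, where its RNA was lowest, of 3.67 to 4.39. No difference in its index was called, the widest being 0.68 ± 0.15 for WG against NC in GOM. A bin was called at a limma adjusted p below 0.05 and a difference above 0.75, over 113298 bins, in the 6 comparisons of ATs within WG and in WG against NC in each AT. Of the 90 tests of the 9 members, 6 were called. In WG, DLK1 was higher in MAD than in GOM by 0.76 ± 0.13 (1 of 9 members and 6.27% of bins called), and PDGFRB was higher in ULB than in GOM by 0.83 ± 0.15 (1 of 9, 18.8% of bins). For RAD against GOM, RAD against MAD, ULB against MAD and ULB against RAD, 0 of 9 members were called by limma, with 12, 1.24, 12.1 and 11.3% of bins called. Of WG against NC, PDGFRB was higher by 1.04 ± 0.23 in GOM (1 of 9, 2.79% of bins). In RAD PDGFRB was higher by 1.02 ± 0.22 and ICAM1 by 0.80 ± 0.15 (2 of 9, 4.32% of bins), and in MAD ICAM1 was higher by 0.80 ± 0.13 (1 of 9, 4.47% of bins). In ULB 0 of 9 were called (6.15% of bins).

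The size of these differences depended on the scale of the index, since the median difference over all bins from NC to WG was 0.14 for GOM and RAD, 0.05 for MAD and 0.25 for ULB. After quantile normalization between libraries, PDGFRB in GOM stayed called at 0.88 ± 0.25, and the other 5 fell to 0.41 to 0.71, with adjusted p below 0.05 in each. DLK1 was then lower in WG than in NC in MAD (-0.85) and RAD (-0.90). The bins of PDGFRB and ICAM1 that rose with weight gain belong to genes whose RNA differed by 0.40 ± 0.18 and 0.52 ± 0.18 in RAD and, for ICAM1, by 0.63 ± 0.17 in MAD. Of these RNA differences, that of ICAM1 in MAD alone was called over all libraries. PDGFRB, whose bin also rose in GOM, had its RNA called in 0 of 12 diet comparisons over all libraries. Hi-C depth per bin is not in the table of the index, so precision rests on the spread between libraries.

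**Figure D4:**
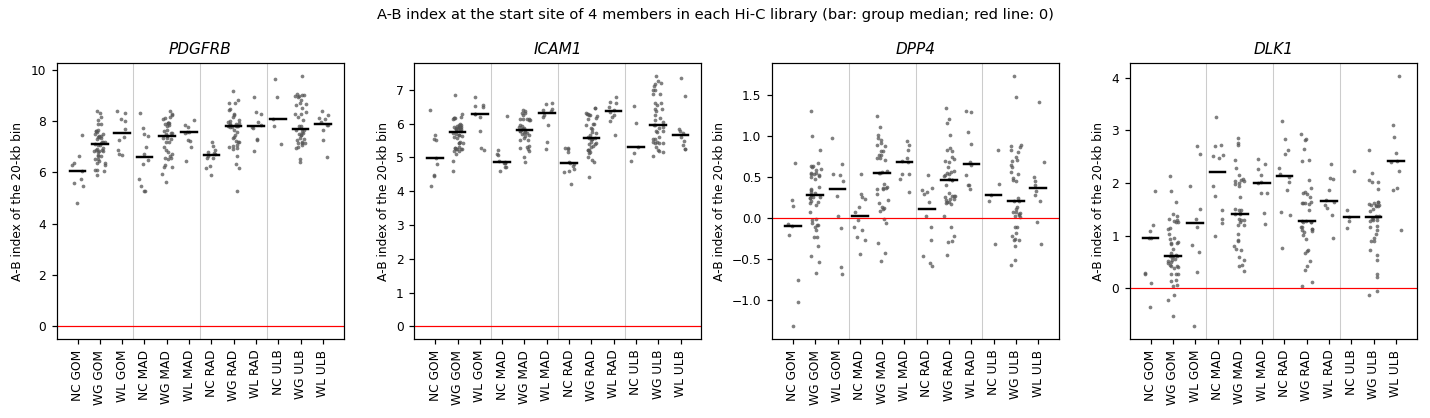
A-B index (no unit) of the 20-kb bin with the start site of PDGFRB, ICAM1, DPP4 and DLK1 in each Hi-C library, by AT and diet, with a bar at the group median and a red line at 0. PDGFRB and ICAM1 lie far above 0 with WG above NC in GOM, MAD and RAD, DPP4 straddles 0, and DLK1 lies mostly above it.

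H3K27ac, an acetylation of histone H3 at active enhancers and promoters, was deposited as 18 merged tables, 1 for each NC or WL group and 10 for subgroups of WG, so no replicate error can be given. The labels list 3 libraries in NC GOM, 1 in NC MAD, 2 in NC RAD and 3 in NC ULB, 4, 3, 4 and 2 in WL, and 15, 14, 12 and 10 in WG, in the same order of ATs. A region was assigned to a gene when it overlapped the gene with a flank of 10 kb. The study excluded promoter regions when it merged the peaks. A table without a region over a start therefore does not show that the promoter lacks the mark. CD34 had a region in all 18 tables and a super-enhancer, the class of the strongest regions, in 14, with a median best rank of 0.510% of the regions of a table. PDGFRB had a region in 16 tables and a super-enhancer in 12. The strongest region over CD34, at chr9:134908401-135030200, ranked 15 of 18143 in a WG RAD table, and its start lies upstream of the gene at chr9:134912793-134937763. F3 had super-enhancers in 8 of 18 tables, PI16 in 5, ICAM1 in 2 and THY1 in 1.

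The super-enhancers of PI16, ICAM1 and THY1 lay mostly in NC tables, those of ICAM1 in NC RAD and NC ULB and that of THY1 in NC ULB. PI16 had a super-enhancer in the 4 NC tables and in 1 of 10 WG and 0 of 4 WL tables, and its NC regions ran over 140600 to 308400 bases, far beyond the gene itself. The WG region started past the end of the gene and did not cover its start. The NC tables were stitched more, with 44.1 to 49.1% of their regions made of several peaks against 31.9 to 35.3% in WG and WL, and the part of this in the contrast was not tested. PDGFRA had a region over its start in all 18 tables and a super-enhancer in 0, with best ranks of 9.88 to 22.3%. DPP4 had weak regions, at best ranks of 44.8 to 99.7%, that covered its start in 4 tables. DLK1 had a region in 11 tables, over its start in 2, and none in the NC tables.

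**Figure D5:**
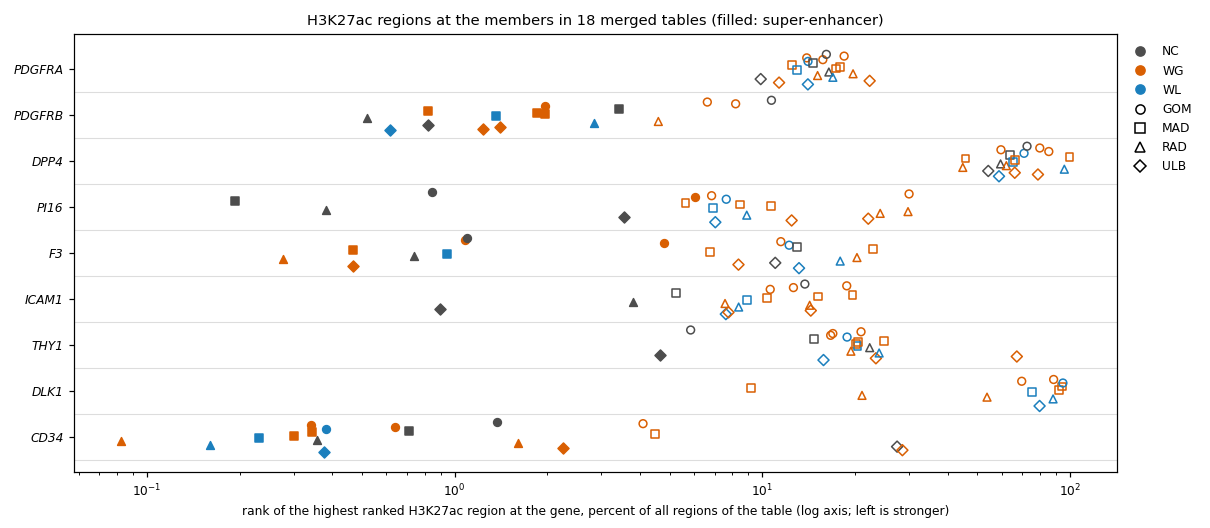
Rank of the highest ranked H3K27ac region at each member, in percent of the regions of a table (log axis, left is stronger), in 18 merged tables coloured by diet with the AT as the symbol, and filled where a super-enhancer was called. CD34 has a median of 0.510% and PDGFRB one of 1.91%, whereas DPP4 lies at 44.8% or more.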

How the data were processed

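RNA-seq, Hi-C and H3K27ac ChIP-seq of the same ATs were analysed from the deposited tables. The authors quantified RNA with kallisto 0.43.0 on Ensembl release 102 of Sscrofa11.1 with added noncoding transcripts and summed transcripts to genes with tximport 1.6.0. Their TPM has the same total in every library over PCGs, lncRNAs and TUCPs together, and the deposited estimated counts per gene are not whole numbers, so they were rounded before testing. The deposited A-B index is a score without unit per 20-kb autosomal bin, made by the authors with Juicer 1.5.6 and BNBC 1.0.0 from reads with a mapping quality of at least 30. The deposited enhancer signal is the read density of H3K27ac and input over SICER regions that were aligned with BWA 0.7.15 and stitched within 12.5 kb, from pooled libraries. Promoter regions were excluded by the authors at the stitching step.

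Groups came from the sample labels, and 9 table columns that matched no sample were not used. The members and lists were chosen with earlier results of these data known. The study took the 4 ATs from each pig, so libraries of different ATs share animals. Whether a replicate number marks 1 pig across ATs is not given in the sources used here. Apart from the replicate block, tests between ATs and of the interaction treated libraries as independent, and p-values measure the spread between these samples. Gene names came from the reference table given, where 14821 of 21280 PCG identifiers had a symbol. PCGs over 0.5 TPM in 80% or more of the libraries of a group were tested with edgeR 4.0.16 (TMM, quasi-likelihood, Benjamini-Hochberg, R 4.3.3), and bins with limma 3.58.1. Alternatives were DESeq2 1.42.0, the edgeR exact test, other scaling and filters, the replicate block, library sets and left-out libraries. The mitochondrial sets (limit 8%) and the libraries that stand apart were added after seeing the data. Named genes were all members, the 3 PCGs most like each, and up to 4 called genes a list. The numbers counted as pairing where every pair correlated above 0.1, which held for NC ULB with GOM (4 pairs), WG ULB with MAD (30) and RAD (33) and WL RAD with MAD (10). Other AT pairs in WG missed this strict rule narrowly: 35 of 36 pairs passed for MAD with GOM and 37 of 39 for RAD with GOM. For ULB with GOM 37 of 38 passed, and for RAD with MAD 30 of 31. Their median r was 0.606 to 0.680, against -0.174 to -0.0646 between different numbers. The scripts were tested on simulated data. Correlations used scipy 1.17.1. THY1 was absent, so 112 pairs per setting replaced the planned number. Promoter sequences are from RefSeq, and antisense or overlapping genes were not separated. TAD positions and noncoding genes were not used. From the lists, 2 genes are not reported here and were left out of the counts and sums, for no reason of their values.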

Additional observations from a re-analysis of the deposited data

Results flagged for a closer look

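In 5 of 96 groups of members by library group, 1 library lay far from the others, about the share of 1 in 20 that chance gives. The screen covered NC GOM, NC ULB and the WL groups, which have 10 libraries or fewer, and left out WG, NC MAD and NC RAD. Among the groups left out, DPP4 reached 53.9 TPM in WG MAD 39 (next 10.7) and 22.5 in NC RAD 7 (next 9.52). DLK1 reached 9.63 TPM in WG GOM 31 (next 0.171). PDGFRB reached 66.9 TPM in WL GOM replicate 4, where the next library had 42.2 TPM. PI16 reached 73.1 TPM in NC GOM replicate 8, where the next had 50.1 TPM. F3 reached 239 TPM in WL GOM replicate 3 and 400.0 TPM in WL ULB replicate 8, where the next had 149.6 and 202 TPM. The A-B index of CD34 was 4.83 in WL RAD replicate 8 and at least 5.42 in the other WL RAD libraries.

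The response to diet differed between ATs for 2 members. For DPP4 the edgeR adjusted p of the interaction was 0.00898 between NC and WG and 0.0325 between WG and WL, and for PI16 it was 0.000539 between NC and WG. With the libraries of 88% or more of TPM on PCGs alone, these were 0.0696 and 0.0231 for DPP4 and 0.0795 for PI16.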

How the results depend on the processing

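No called result reversed. Among single calls, 351 of 392 values between ATs and 142 of 183 between diets stayed on the same side of the threshold. So did 42 of 45 interactions and 15 of 24 values of the A-B index. Differences that were not called were left out of this count. Those of PDGFRB from WG to WL changed sign in each AT between all libraries and the low mitochondrial set. The 37 calls between ATs became 34 to 39 (39 without NC RAD replicate 7) and the 18 between diets 17 to 18 when 1 library was left out, and the A-B index stayed at 6. The diet calls fell to 8 with the replicate block, 7 of them among the 18, which used the numbers found in both groups although they did not pair the samples there, and to 7 of 16 comparable calls with PCG shares of 88% or more. In the mitochondrial low set 8 were called and 7 of 14 comparable calls held, and in the high set 8 were called and 5 of 5 held. The 3 interactions became 1 at 88% or more, 6 with a mitochondrial set term, 1 against 2 in the high set, and 3 to 5 when 1 library was left out (5 without WG GOM replicate 35). The A-B calls became 3 after quantile normalization and 37 by adjusted p alone. The 24 correlations over all WG libraries became 15 in the high set, 10 in the low set, and 12 in the low set without WG GOM replicate 35. Without the mitochondria-encoded genes, 4 of 7 members kept their lowest and highest group. Between ATs, 32 of the 37 calls held with the replicate block and 5 were weaker. Where the numbers met the rule for pairing, the block changed 2 calls, both given in the report. The cause of these changes was not tested. NC ULB has the fewest libraries, 5, and depth per bin or pooled replicate spread is not given for Hi-C and H3K27ac.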
